A study of Homo sapiens with 24 samples.

Results

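Untreated expression was compared between TF-1 and UCSD-AML1, using the vehicle libraries alone: 4 libraries of TF-1 and 4 of UCSD-AML1, 8 of the 24 libraries in the series. TF-1 is a human erythroleukemia line and UCSD-AML1 a human acute myeloid leukemia line that carries a rearrangement of the long arm of chromosome 3 known to activate MECOM (EVI1). Both are growth factor dependent, and the series groups them with UT-7 as EVI1-driven. The TF-1 group received vehicle for 24 h, and the UCSD-AML1 group received vehicle for 24 h; the other groups of the series received 3 mM cyclocreatine for 24 h or were UT-7. Each group stands for 1 cell line, so the features of a line (donor, leukemia type, karyotype, culture) cannot be told apart. The labels call the wells quadruplicate and do not say whether the 4 came from separate cultures, so the p-values measure the spread between these libraries, which may be technical.

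Myeloid progenitors can enter the red cell, platelet, granulocyte, monocyte and mast cell lineages, and leukemia lines keep fragments of these programs. The red cell program is set by the transcription factors GATA1 and KLF1, which switch on globin, heme and membrane skeleton genes. MECOM is a zinc finger transcription factor of blood stem cells. Type I interferon genes are switched on when STAT2 and IRF9 bind promoter elements of the GAAANNGAA kind. Creatine enters cells through the transporter SLC6A8 or is made by GATM and GAMT, and creatine kinases such as CKB charge it with phosphate.

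Each vehicle library held 14297926 to 17414130 counts, and 16302 to 17102 genes had a count. Of the 14588 genes tested, 12249 (84%) passed an adjusted p of 0.05 by edgeR's quasi-likelihood test, 5929 (40.6%) higher in TF-1 and 6320 (43.3%) higher in UCSD-AML1. With a change of 2-fold or more required as well, 5916 genes (40.6%) were called, 3182 (21.8%) higher in TF-1 and 2734 (18.7%) higher in UCSD-AML1. These shares are the background against which the lists below are read, except where stated. List counts cover the members that passed the filter on low counts, and a member silent in 1 line could pass it through the other line alone. Replicate groups did not overlap in 11624 genes (79.7%). Differences of 8-fold or more were called for 1512 genes higher in TF-1 and 854 higher in UCSD-AML1. Levels are CPM, counts scaled by each library's TMM-adjusted total and not corrected for gene length, so they compare libraries and not genes. Log2 fold changes are TF-1 minus UCSD-AML1, with their standard error (SE). Where a line held at most 12 counts over its 4 libraries and the other at least 10 CPM, the gene was called near absent and its fold is a lower bound against 3 counts per library. For genes close to 12 counts this bound does not cover counting error.

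**Figure D1:**
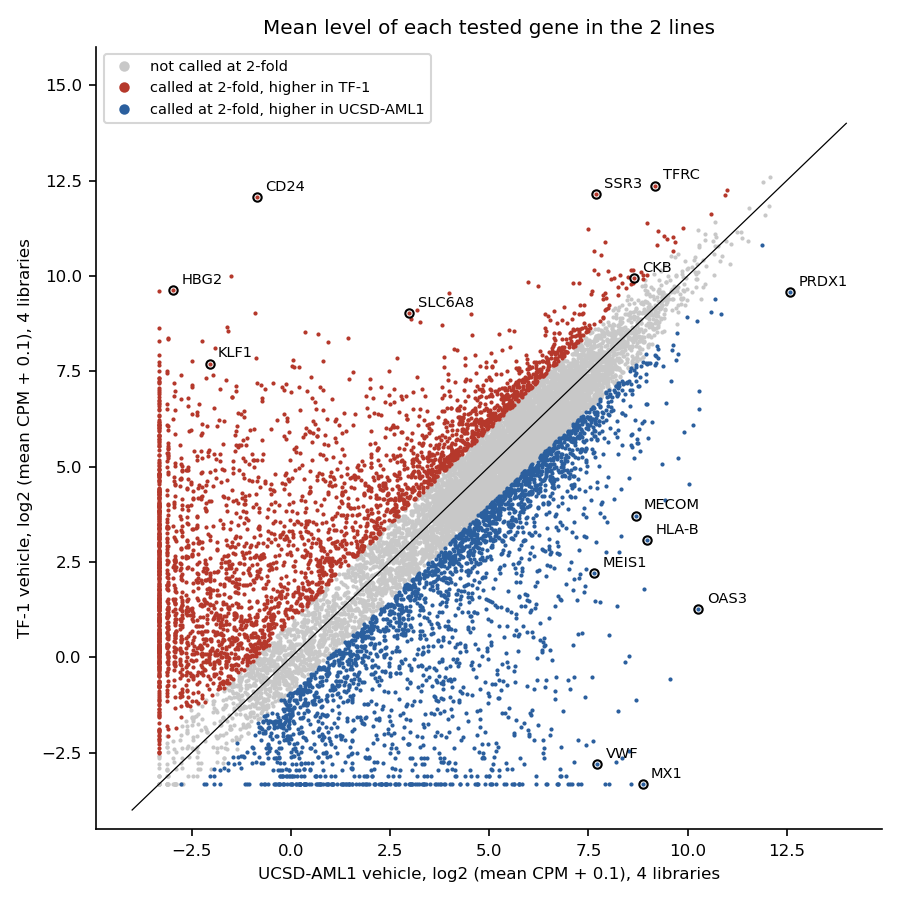
Mean level of the 14588 tested genes in UCSD-AML1 (x axis) and TF-1 (y axis), as log2 of mean CPM plus 0.1 over 4 vehicle libraries each, with the line of equal level. The red points are the 3182 genes called at 2-fold higher in TF-1 and the blue points the 2734 called higher in UCSD-AML1, and the columns of points at the left and foot are genes with few or no counts in 1 line.

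In these bulk libraries, fewer cells with a program and less RNA per cell cannot be told apart. Marker genes were read first against the names of the lines. Of 12 erythroid markers, 11 were called at 2-fold higher in TF-1 and 0 in UCSD-AML1, and their summed level was 7108 to 7548 CPM in TF-1 against 645.0 to 673.5 CPM in UCSD-AML1. Most of both sums was TFRC, at 5103 to 5526 CPM in TF-1 and 562 to 594 CPM in UCSD-AML1. HBA1, HBA2, HBB and ALAS2 were among the markers at 0 counts in every UCSD-AML1 library. Of 9 megakaryocyte markers, 5 were higher in UCSD-AML1 and 1 in TF-1. Of 10 granulocyte and monocyte markers, 2 were higher in UCSD-AML1 and 3 in TF-1, with summed levels of 491.6 to 505.3 and 293.1 to 305.9 CPM. CSF1R alone made up 313 to 326 CPM of the UCSD-AML1 sum and 8.21 to 9.81 CPM of the TF-1 sum. The higher sum in UCSD-AML1 therefore rests on that gene. Among 8 lymphoid markers 6 were higher in UCSD-AML1, at summed levels of 235.6 to 264.9 CPM against 21.15 to 24.59 CPM. MS4A1 was at 0 in both lines. A single lymphoid gene can make up most of such sums. PTPRCAP stood at 160.3 to 183.6 CPM in UCSD-AML1 and 12.16 to 13.98 CPM in TF-1. The wider lymphoid list given below was split, with 9 of 27 higher in TF-1 and 11 in UCSD-AML1. The marker count does not stand for that list. Stem and progenitor markers were called higher in UCSD-AML1 for 5 of 8. Mast cell markers were higher in TF-1 for 5 of 8, and 3 of 8 stromal and epithelial markers were higher in TF-1 and 1 in UCSD-AML1.

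The largest contrasts in which a line had next to no transcript were 299 genes near absent from UCSD-AML1 and 141 near absent from TF-1. In the first set, HBG2, a fetal globin chain, stood at 756, 811, 811 and 786 CPM in the TF-1 libraries against 0.114 CPM in 1 UCSD-AML1 library and 0 in the other 3, at least 4140-fold higher in TF-1. The groups did not come near each other. MAN1A1, a mannosidase of the Golgi, was at least 2080-fold higher and CA1, a red cell carbonic anhydrase, at least 1730-fold. FAM171A1 was at least 1640-fold and the calcium-binding S100A6 at least 1440-fold higher in TF-1. Reads from HBG2 can be shared with its near-identical copy HBG1, so the split between these genes is uncertain.

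In the opposite direction, MX1, an interferon-induced GTPase, had no count in any TF-1 library and stood at 470, 482, 449 and 464 CPM in UCSD-AML1, at least 2480-fold higher there. IGFBP4, a carrier of insulin-like growth factors, was at least 1940-fold higher in UCSD-AML1, GAS7 at least 1740-fold and the exchange factor FGD5 at least 1550-fold. GPC3, a glypican of the cell surface, was at least 1380-fold and TNFSF8 (CD30 ligand) at least 1290-fold higher. As values beside these, UT-7 vehicle libraries held 909.8 CPM of IGFBP4 and no count of GPC3, FGD5 or TNFSF8.

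Genes expressed in both lines differed by wide margins as well. Among those with at least 5 CPM in each, the 8 with the largest difference higher in TF-1 were SLC6A8, LEPR, DDIT4, COL18A1, MEST, PFKM, TFR2 and MYH10, with log2 fold changes of 4.92 to 6.04. LEPR, the leptin receptor, averaged 546.5 ± 24.0 CPM in TF-1 against 9.02 ± 0.756 in UCSD-AML1 (SD, n = 4 each). DDIT4, an mTORC1 inhibitor induced by stress, averaged 469.4 ± 17.7 CPM against 8.13 ± 0.565. TFR2, the second transferrin receptor of red cell precursors, averaged 183.1 ± 2.76 CPM against 5.47 ± 0.713, and PFKM, the muscle form of phosphofructokinase, 230.7 ± 7.41 against 6.31 ± 0.633.

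The 8 with the largest difference in the opposite direction were HLA-B, ENPP2, NRIP1, RAB27B, BASP1, CSF1R, MECOM and SELP, with log2 fold changes from -5.93 to -4.71. CSF1R, the receptor of macrophage colony-stimulating factor, averaged 9.05 ± 0.802 CPM in TF-1 and 320.1 ± 6.59 in UCSD-AML1. NRIP1, a nuclear receptor corepressor, averaged 23.3 ± 1.22 CPM in TF-1 and 1048 ± 35.4 in UCSD-AML1. RAB27B, which moves secretory granules, averaged 17.5 ± 2.27 and 686.4 ± 20.4 CPM. ENPP2, the enzyme that makes lysophosphatidic acid, averaged 6.73 ± 0.850 and 308.8 ± 11.5 CPM.

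Among abundant transcripts, TFRC, the transferrin receptor, stood at 5313, 5103, 5526 and 5225 CPM in TF-1 and at 575, 588, 594 and 562 CPM in UCSD-AML1 (log2 fold change 3.19, SE 0.05, adjusted p = 2.79e-35 by edgeR). SSR3, a subunit of the signal sequence receptor complex, stood at 4427 to 4590 CPM in TF-1 and 198 to 220 CPM in UCSD-AML1. CD24, a surface glycoprotein with near-identical copies elsewhere in the genome and therefore uncertain, stood at 4193 to 4379 CPM in TF-1 against 0.276 to 0.626 CPM. PABPC1, which binds poly(A) tails, was also among the 4 largest differences in CPM (log2 fold change 1.27, SE 0.03). The 4 largest the other way were PRDX1, ACTG1, MYH9 and OAS3. PRDX1, a peroxide-reducing enzyme, stood at 747, 783, 762 and 777 CPM in TF-1 and 6283, 6091, 6057 and 6059 in UCSD-AML1, 7.98-fold higher there (adjusted p = 4.05e-38 by edgeR).

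In each of the red cell lists, which cover globins, regulators and surface genes, heme and iron, and the membrane skeleton, more genes were higher in TF-1 than in UCSD-AML1 at 2-fold. The 9 tested globin genes were each called at 2-fold higher in TF-1. HBA1, HBA2, HBB and HBZ had no count in UCSD-AML1, so no call higher in UCSD-AML1 was possible for them. The globin count is therefore not read against the background, and no median is given. HBZ, an embryonic alpha-type chain, stood at 143, 152, 144 and 148 CPM in TF-1 and at 0 in all UCSD-AML1 libraries. HBB, the adult beta chain, averaged 43.6 ± 1.95 CPM in TF-1 and had no count in UCSD-AML1, and HBE1, the embryonic beta-type chain, averaged 44.5 ± 1.65 CPM. HBD, the minor adult chain, averaged 20.2 ± 1.95 CPM in TF-1 and was low but present in the other line, with a mean of 1.29 ± 0.262 CPM. The summed globin level was 1468 to 1496 CPM in TF-1 and 3.17 to 4.19 CPM in UCSD-AML1.

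Of 24 tested erythroid regulators and surface genes, 20 were higher in TF-1 and 1 in UCSD-AML1 at 2-fold, and the median difference was 3.39 on the log2 scale against -0.0455 over all tested genes. Of the 25 in the files, 5 had no count in UCSD-AML1 and 1 fell under the filter. Members with no count in UCSD-AML1 could not be called higher there, so the count is not read against the background. The 1 gene called the other way was BCL11A, a repressor of fetal globin, at 8.27 CPM in TF-1 and 59.0 CPM in UCSD-AML1 (log2 fold change -2.83). RHAG, a channel of the Rh complex, was present in both lines, at 481 to 507 CPM in TF-1 and 86.3 to 90.5 CPM in UCSD-AML1. MYL4, a myosin light chain, had a log2 fold change of 5.88.

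The regulators GATA1, KLF1, TAL1 and GATA2 were named after their values were seen. GATA1 stood at 150, 150, 147 and 158 CPM in TF-1 and 21.9, 22.0, 19.9 and 20.2 CPM in UCSD-AML1 (log2 fold change 2.84, SE 0.05, adjusted p = 5.16e-35 by edgeR). KLF1, which acts after GATA1, stood at 202 to 217 CPM against 0.125 to 0.171 CPM, at least 1090-fold higher in TF-1. TAL1 and GATA2, which progenitors of several lineages also use, differed by under 2-fold, with log2 fold changes of 0.50 and 0.64, both called.

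Heme synthesis and iron genes were higher in TF-1 for 13 of 16 and in UCSD-AML1 for 0, with a median of 1.85. ALAS2, the red cell form of the first enzyme of heme synthesis, stood at 196, 204, 211 and 206 CPM in TF-1 and at 0 in UCSD-AML1. FECH, which inserts iron at the last step, was present in both lines, at 191.6 ± 5.41 CPM in TF-1 and 53.6 ± 0.949 CPM in UCSD-AML1. FTH1, the ferritin heavy chain, averaged 1121 ± 24.2 CPM in TF-1 and 255.7 ± 2.06 in UCSD-AML1. SLC40A1, the iron exporter, had a log2 fold change of 8.27 (SE 0.09).

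In the red cell membrane skeleton list, 7 of 12 members were higher in TF-1 at 2-fold and 0 in UCSD-AML1. ANK1, the ankyrin that ties spectrin to the membrane, averaged 405.7 ± 13.3 CPM in TF-1 and 0.226 ± 0.133 in UCSD-AML1. SPTB, a spectrin chain, averaged 111.4 ± 3.17 and 4.11 ± 0.391 CPM, and ADD2 was at least 562-fold and EPB42 at least 184-fold higher in TF-1. UT-7 vehicle libraries, set beside these as values only, held 747.5 CPM of ANK1, 585.0 CPM of HBG2 and 0.339 CPM of HBZ.

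Promoter sequences of 3 red cell genes are shown because these genes separate the lines and carry the GATA factor letters AGATAA or TGATAA, or their complements TTATCT or TTATCA, which are in capitals. The sequences are the 170 bases before the RefSeq start, read 5′ to 3′ on the gene's strand, on assembly GRCh38.p14: RHAG at chr6:49636840-49637009, ALAS2 at chrX:55030978-55031147 and EPOR at chr19:11384315-11384484, all on the minus strand; the levels of EPOR are given with the cytokine receptors.
RHAG: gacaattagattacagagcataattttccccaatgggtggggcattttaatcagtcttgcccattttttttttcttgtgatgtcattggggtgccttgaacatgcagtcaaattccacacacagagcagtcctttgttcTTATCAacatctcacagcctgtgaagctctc
ALAS2: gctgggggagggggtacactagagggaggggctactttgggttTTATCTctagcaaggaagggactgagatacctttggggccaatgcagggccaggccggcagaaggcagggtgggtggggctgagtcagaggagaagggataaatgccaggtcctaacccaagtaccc
EPOR: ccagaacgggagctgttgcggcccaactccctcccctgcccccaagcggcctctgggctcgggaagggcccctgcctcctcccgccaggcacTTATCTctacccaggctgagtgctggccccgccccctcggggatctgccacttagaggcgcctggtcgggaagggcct
These letters occurred on either strand in 16.3% of the 35116 promoters of 300 bases in the table (250 bases before and 50 after the start), so a match alone is a description and not a binding site; no share over a set of genes is given. The match nearest to the start began 31 bases before it in RHAG, 127 in ALAS2 and 78 in EPOR. The table held promoters for 10513 of the 14588 tested genes, 218 of the 299 near absent from UCSD-AML1 and 95 of the 141 near absent from TF-1. Too many members of each set lack a sequence, so the planned comparison of motif and CpG content is void.

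Interferon genes stood on the other side. Of 34 tested genes of the type I interferon response, 27 were called at 2-fold higher in UCSD-AML1 (79.4% against 18.7% of all genes) and 0 in TF-1, and the median difference was -2.81 on the log2 scale. MX1, with no count in TF-1, could be called in that direction alone. Counting smaller changes, 31 were higher in UCSD-AML1 and 3 did not pass: IFITM1 (176.4 and 166.1 CPM in TF-1 and UCSD-AML1), IFITM3 (320.8 and 304.6 CPM) and ISG20 (0.715 and 1.14 CPM). OAS3, which senses double-stranded RNA, stood at 2.04, 2.22, 2.44 and 2.52 CPM in TF-1 and 1246, 1302, 1194 and 1209 CPM in UCSD-AML1 (log2 fold change -9.06, SE 0.07, adjusted p = 1.17e-47 by edgeR). OAS2, of the same family, stood at 0.128 to 0.599 CPM against 407 to 429 CPM. Neither pair of groups overlapped.

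IFI27 stood at 0.941 to 1.85 CPM in TF-1 and 137 to 162 CPM in UCSD-AML1, and IFI44L at 3.17 to 3.96 CPM against 153 to 176 CPM. The receptor chains IFNAR1 and IFNAR2 were higher in TF-1, with log2 fold changes of 1.49 and 1.31; they were named after their values were seen. The summed level of the interferon list was 1082 to 1191 CPM in TF-1 and 5282 to 5675 CPM in UCSD-AML1. UT-7 vehicle libraries held 0.241 CPM of MX1 and 13.6 CPM of OAS3.

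Promoters of 3 interferon genes are shown because their transcripts separate the lines and their upstream bases hold the letters GAAANNGAA, in capitals, searched on both strands. OAS3 lies at chr12:112938304-112938473, IFI27 at chr14:94110566-94110735 for the first of its 2 starts, and IFI44L at chr1:78620278-78620447, all on the plus strand of GRCh38.p14 and all 170 bases before the RefSeq start.
OAS3: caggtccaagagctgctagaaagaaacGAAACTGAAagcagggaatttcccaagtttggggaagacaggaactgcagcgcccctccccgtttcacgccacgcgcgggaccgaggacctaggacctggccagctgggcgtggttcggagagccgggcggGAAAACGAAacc
IFI27: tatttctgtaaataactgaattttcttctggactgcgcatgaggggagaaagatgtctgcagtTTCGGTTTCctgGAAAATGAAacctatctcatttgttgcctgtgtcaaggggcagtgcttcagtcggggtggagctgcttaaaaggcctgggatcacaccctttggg
IFI44L: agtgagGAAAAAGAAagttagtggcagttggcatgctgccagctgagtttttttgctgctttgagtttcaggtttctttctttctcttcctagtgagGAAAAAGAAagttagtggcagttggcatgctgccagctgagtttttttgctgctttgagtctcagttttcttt
The letters occurred in 8.11% of all promoters of the table. The nearest match began 12 bases before the start in OAS3, 95 in IFI27 and 73 in IFI44L. The 170 bases before the second start of IFI27 hold no match. The table held 24 of the 34 genes of the list, and no share over the list is given for the same reason.

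HLA class I genes and their peptide loading partners were higher in UCSD-AML1 for 11 of 18 and in TF-1 for 1, with a median of -1.55. HLA-B stood at 9.14, 8.94, 7.33 and 7.79 CPM in TF-1 and 530, 527, 478 and 489 CPM in UCSD-AML1, and B2M, the light chain of class I molecules, at 509 to 549 and 1513 to 1583 CPM. HLA-C had a log2 fold change of -3.05 (SE 0.06). HLA genes are near-identical and vary between people, so reads may be lost or split and their levels are uncertain. CALR, a chaperone of the endoplasmic reticulum, was the 1 member higher in TF-1 at 2-fold (log2 fold change 1.19). The class II list moved less, with 3 of 15 higher in TF-1 and 2 in UCSD-AML1: CD74, the invariant chain, averaged 152.4 and 492.8 CPM, and HLA-DRB1 38.5 and 18.2 CPM in TF-1 and UCSD-AML1.

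**Figure D2:**
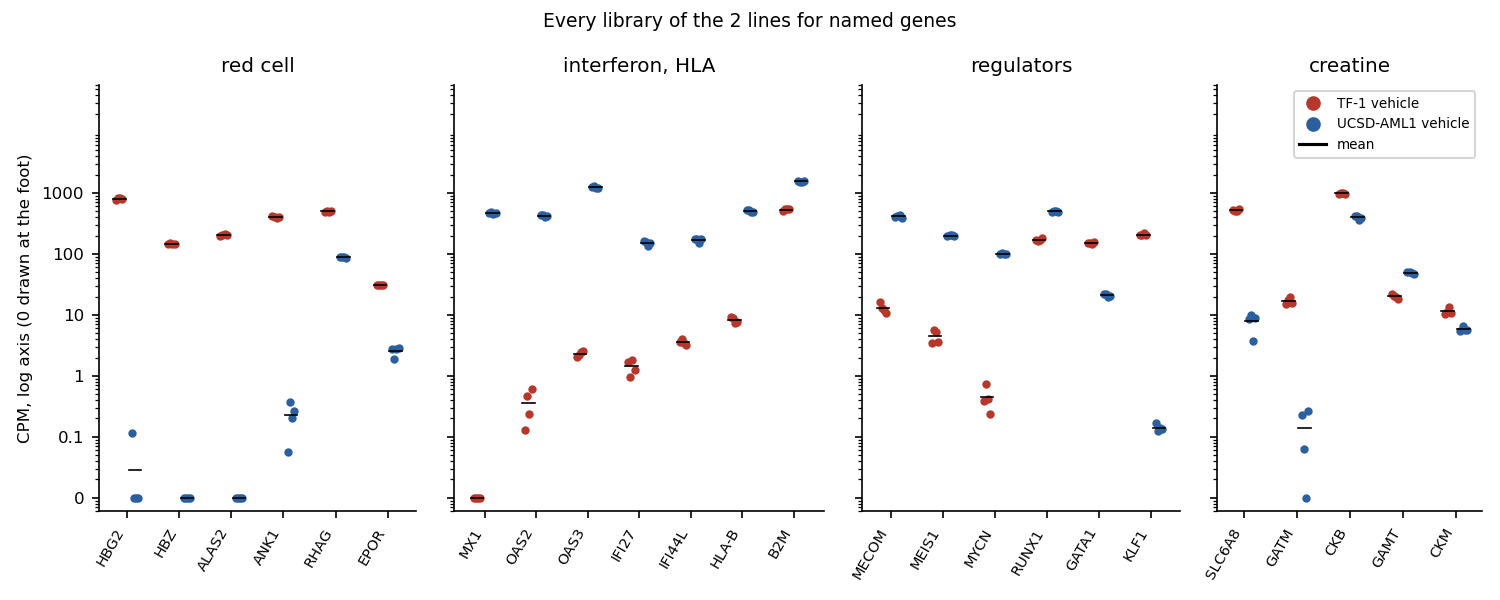
CPM of named genes in each of the 4 TF-1 (red) and 4 UCSD-AML1 (blue) vehicle libraries on a log axis, with bars at the means and values of 0 drawn at the foot. HBZ and ALAS2 have no count in UCSD-AML1 and MX1 none in TF-1, and the 2 groups of points overlap for none of the genes drawn.

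Platelet lineage genes leaned to UCSD-AML1, with 14 of 26 higher there at 2-fold, 5 higher in TF-1 and a median of -1.67. VWF, the adhesive protein of platelets and endothelium, stood at 0, 0, 0.119 and 0.0599 CPM in TF-1 and 217, 229, 203 and 198 CPM in UCSD-AML1, at least 1130-fold higher. SELP, an adhesion receptor of platelet granules, averaged 7.97 ± 1.54 and 207.5 ± 6.16 CPM, and PLEK, a protein kinase C substrate of platelets, 54.6 ± 3.18 and 296.5 ± 2.85 CPM. The members higher in TF-1 included CD36, a scavenger receptor (log2 fold change 6.51, SE 0.09). ITGA2B, the defining integrin chain, averaged 574.7 CPM in TF-1 and 584.7 in UCSD-AML1 (adjusted p = 0.456 by edgeR).

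Mast cell, basophil and eosinophil genes were higher in TF-1 for 12 of 16 and in UCSD-AML1 for 1, with a median of 4.19. HDC, which makes histamine, stood at 145, 154, 158 and 157 CPM in TF-1 and 0.114 to 0.332 CPM in UCSD-AML1. FCER1A, the IgE receptor chain, averaged 123.3 ± 3.05 and 8.39 ± 0.850 CPM, HPGDS 22.0 ± 1.90 and 0.488 ± 0.171, and CPA3, a mast cell protease, 76.6 ± 2.99 and 27.0 ± 0.724. In the granule and neutrophil list, of which 12 of 25 fell under the filter, 8 of 13 were higher in TF-1 and 3 in UCSD-AML1. Of the 25, 8 had no count in UCSD-AML1 and 3 had none in TF-1. MS4A3 passed with no count in UCSD-AML1, which fixed its direction, so the count is not read against the background. MS4A3 was at least 833-fold higher in TF-1, LYZ (lysozyme) averaged 109.8 and 6.82 CPM, and PRG2, the eosinophil major basic protein, 177.5 and 2.84 CPM. CTSG, a neutrophil protease, went the other way at 0.370 ± 0.137 CPM in TF-1 and 100.2 ± 3.39 in UCSD-AML1.

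Monocyte genes were split, with 9 of 22 higher in TF-1 and 8 in UCSD-AML1. CSF1R, CLEC7A (a glucan receptor, log2 fold change -7.91), CX3CR1 (-5.48) and VCAN (a matrix proteoglycan, -6.39) were among those higher in UCSD-AML1. The rule of the smallest p named none of the 9 higher in TF-1, so these names do not stand for the list. Lymphoid genes were split as well, with 9 of 27 higher in TF-1 and 11 of 27 in UCSD-AML1. IL7R had no count in TF-1 and averaged 105.6 ± 4.58 CPM in UCSD-AML1, at least 562-fold higher, and PTPRCAP, CD79A and PAX5 had log2 fold changes of -3.75, -3.94 and -5.40. CD4 went the other way, at 237.7 ± 4.31 CPM in TF-1 and 107.8 ± 2.95 in UCSD-AML1. In the stromal, endothelial and epithelial list 7 of 19 were higher in TF-1 and 5 in UCSD-AML1, and endothelial receptors went in opposite directions. CDH5 averaged 1.41 ± 0.508 CPM in TF-1 and 259.0 ± 8.84 in UCSD-AML1, and KDR 67.0 ± 2.68 and 0.291 ± 0.180 CPM. Whether other cells contribute to any of these values was not tested.

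**Figure D3:**
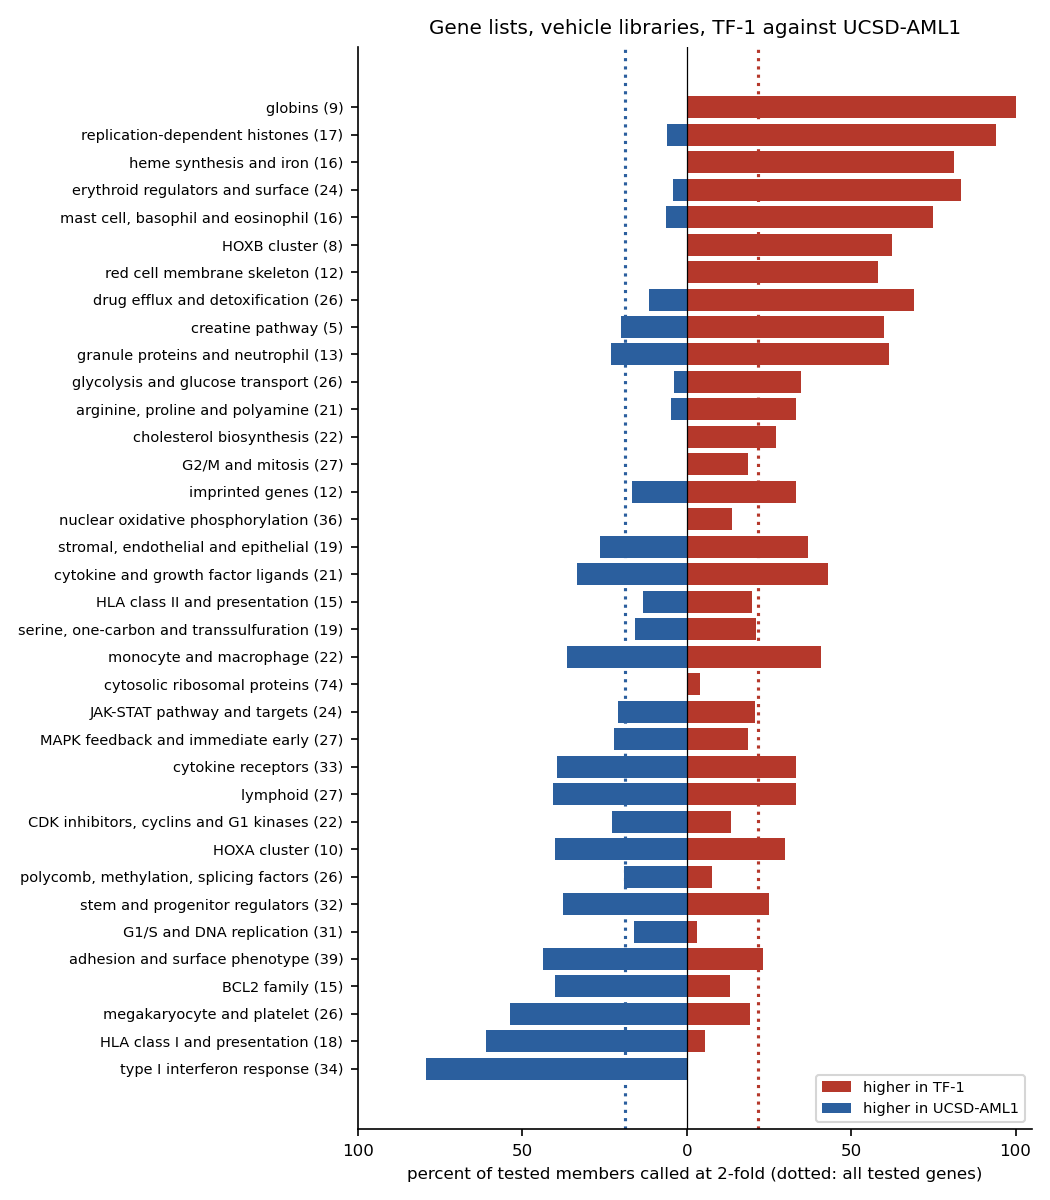
Percent of the tested members of gene lists of which most members passed the filter (number tested in parentheses) called at 2-fold higher in TF-1 (red, right) or UCSD-AML1 (blue, left), with dotted lines at the shares over all tested genes, 21.8% and 18.7%. Not every such list is drawn. Globins reach 100% on the TF-1 side, and the interferon list 79.4% on the UCSD-AML1 side. The globin, HOXB, erythroid regulator, granule and detoxification bars include members with no count in UCSD-AML1 and are not read against the dotted lines.

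Stem and progenitor regulators were higher in UCSD-AML1 for 12 of 32 and in TF-1 for 8. MECOM, the gene that gives the series its theme, stood at 16.5, 12.8, 11.9 and 10.9 CPM in TF-1 and 408, 419, 428 and 394 CPM in UCSD-AML1 (log2 fold change -4.99, SE 0.11, adjusted p = 1.21e-21 by edgeR). UT-7 vehicle libraries, given as values only, held 6.34 ± 0.739 CPM (SD, n = 4). MEIS1, a homeobox partner of HOX proteins, stood at 3.51 to 5.64 CPM against 197 to 202 CPM. BAALC was at least 582-fold higher in UCSD-AML1, and MYCN had a log2 fold change of -7.82. RUNX1 and FLI1, used in stem cells and megakaryocytes, were higher in UCSD-AML1 by log2 differences of -1.54 and -1.48.

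HOX genes are given by cluster. In HOXB, 5 of 8 tested genes were higher in TF-1 and 0 in UCSD-AML1. Of these, HOXB8, HOXB9 and HOXB13 had no count in UCSD-AML1 and passed the filter through TF-1, which fixed their direction. The HOXB count is therefore not read against the background, and no median is given. HOXB9 averaged 64.1 ± 3.51 CPM in TF-1, at least 335-fold higher, and HOXB7 had a log2 fold change of 4.45. In HOXA, 3 of 10 were higher in TF-1 and 4 in UCSD-AML1. HOXA4 averaged 5.30 ± 0.775 and 0.411 ± 0.143 CPM, while HOXA11 averaged 8.47 ± 0.435 and 24.3 ± 1.53 and HOXA9 0.0447 ± 0.0894 and 1.95 ± 0.497 CPM. Of 18 HOXC and HOXD genes, 1 passed the filter on low counts and it was not called.

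Of 5 tested creatine genes, 3 were higher in TF-1 and 1 in UCSD-AML1 at 2-fold. Without the filter on low counts, 5 were higher in TF-1. SLC6A8 stood at 522, 510, 505 and 546 CPM in TF-1 and 8.47, 10.1, 3.79 and 8.91 CPM in UCSD-AML1 (log2 fold change 6.04, SE 0.16, adjusted p = 1.19e-18 by edgeR). The UCSD-AML1 libraries were the lower group throughout, with 1 library below the rest. GATM, which starts creatine synthesis, averaged 17.2 ± 2.19 CPM in TF-1 and stood at 0 to 0.266 CPM in UCSD-AML1, at least 89.8-fold higher in TF-1. GAMT, which completes it, went the other way at 18.0 to 21.8 CPM in TF-1 and 47.4 to 51.0 CPM in UCSD-AML1 (log2 fold change -1.29, SE 0.08). CKB, the brain-type kinase, stood at 972, 998, 1012 and 976 CPM against 426, 416, 366 and 389 CPM (log2 fold change 1.31, SE 0.05). CKM, the muscle type, differed by just under 2-fold (0.97, SE 0.12). The mitochondrial kinases CKMT1A, CKMT1B and CKMT2 fell under the filter, with 48, 18 and 11 counts over the TF-1 libraries and 0, 0 and 22 over UCSD-AML1, and CKMT1A and CKMT1B are near-identical copies.

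Cytokine receptors were split, with 11 of 33 higher in TF-1 and 13 in UCSD-AML1. EPOR, the erythropoietin receptor, stood at 30.9, 31.4, 30.9 and 30.4 CPM in TF-1 and 2.79, 1.88, 2.76 and 2.86 CPM in UCSD-AML1. CSF2RB, the signalling chain shared by GM-CSF, IL-3 and IL-5 receptors, and CSF2RA, the GM-CSF chain, were higher in TF-1 (log2 fold changes 1.21 and 1.25), while IL3RA was higher in UCSD-AML1 (-1.60); these and KIT (-0.43) were named after their values were seen. IL6R (-3.92), LIFR (-8.70) and CSF3R (-5.04) were higher in UCSD-AML1. Among ligands, of which 16 of 37 fell under the filter, 9 of 21 were higher in TF-1 and 7 in UCSD-AML1: LIF was at least 156-fold higher in TF-1, CSF1 averaged 26.0 and 0.338 CPM, VEGFA 116.0 and 21.9 CPM, and CXCL1 was at least 169-fold higher in UCSD-AML1. The pair CSF1 and CSF1R was thus high in different lines.

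Signalling lists lay near the background. In the JAK-STAT list 5 of 24 were called in each direction, with PIM1, a survival kinase, at a log2 fold change of 1.24. In the MAPK and immediate early list 5 of 27 were higher in TF-1 and 6 in UCSD-AML1. DUSP6, which dephosphorylates ERK, had a log2 fold change of -3.81 (SE 0.09), FOSL2 -2.59 and MYC 1.21, and JUN averaged 22.7 ± 1.07 CPM in TF-1 and 1.84 ± 0.462 in UCSD-AML1. Adhesion and surface genes were higher in UCSD-AML1 for 17 of 39 and in TF-1 for 9, among them NCAM1 (CD56, at least 804-fold), ITGA6 (-4.23) and CD69 (-4.44) in UCSD-AML1 and ICAM1 (3.32) in TF-1.

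Genes that restrain the cell cycle or carry death signals differed in both directions. CDKN1A, a cell cycle inhibitor, and TNFRSF10B, a death receptor, were higher in UCSD-AML1, with log2 fold changes of -2.82 and -5.42. CDKN2A, which encodes p16 and p14ARF, averaged 310.4 ± 13.8 CPM in TF-1 and 1.81 ± 0.286 in UCSD-AML1 (log2 fold change 7.42, SE 0.10). In the list of cyclins, inhibitors and G1 kinases, 3 of 22 were higher in TF-1, CCNE1 (2.31) among them, and 5 in UCSD-AML1. In the BCL2 family 6 of 15 were higher in UCSD-AML1 and 2 in TF-1: BCL2 averaged 11.7 ± 0.643 and 109.4 ± 3.73 CPM, and BCL2L1 (BCL-XL) 392.1 ± 9.17 and 175.4 ± 5.27 CPM, so the pair of survival genes was high in opposite lines.

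Detoxification genes were higher in TF-1 for 18 of 26 and in UCSD-AML1 for 3. Of the 30 in the files, 5 had no count in UCSD-AML1 and 0 had none in TF-1, and 4 fell under the filter. Members that passed with no count in UCSD-AML1, AKR1C1 among them, could be called in 1 direction alone. The count is therefore not read against the background. GSTM3 and MGST1, glutathione transferases, had a log2 fold change of 8.75 and a bound of at least 431-fold, and AKR1C1, whose family members are close copies, was at least 358-fold higher. ALDH2, the mitochondrial aldehyde dehydrogenase, went the other way at 0.275 ± 0.169 CPM in TF-1 and 302.2 ± 6.37 in UCSD-AML1. Of 25 cancer-testis and germline genes in the files, 14 fell under the filter, 8 of them with no count in either line. Most of the 11 that passed had no count in UCSD-AML1 and passed through TF-1, so no count or median is given for the list. MAGEA3, one of a set of near-identical genes, was at least 379-fold and LIN28B at least 297-fold higher, and PRAME averaged 68.0 and 5.84 CPM. Among imprinted genes, of which 8 of 20 fell under the filter, 4 of 12 were higher in TF-1 and 2 in UCSD-AML1, with MEST (5.55), PLAGL1 (5.34) and MEG3 (3.76) in TF-1.

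Metabolic and housekeeping lists differed by smaller amounts. Glycolysis genes were higher in TF-1 for 9 of 26 and in UCSD-AML1 for 1, with a median of 0.151: GPI averaged 2691 ± 32.0 and 501.0 ± 28.6 CPM, HK1 783.9 ± 4.38 and 192.4 ± 5.99 CPM, and ALDOC had a log2 fold change of 6.36. Serine and one-carbon genes were 4 and 3 of 19, with PSAT1 at least 523-fold higher in TF-1 and CBS at 4.39. Arginine, proline and polyamine genes were 7 and 1 of 21, with ODC1 (1.47) and OAT (1.74). Cholesterol synthesis genes were 6 and 0 of 22, with INSIG1 at 3.07 and CYP51A1 at 2.86. Nuclear oxidative phosphorylation genes were 5 and 0 of 36, with UQCRH (1.39) and SDHD (1.27), and polycomb, methylation and splicing factors 2 and 5 of 26. Transcripts of the mitochondrial genome were not analysed here.

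At 2-fold, the shares of both proliferation lists lay below those over all tested genes, 21.8% higher in TF-1 and 18.7% higher in UCSD-AML1. Of 31 G1/S and replication genes, 5 were higher in UCSD-AML1 and 1 in TF-1, with POLE, a DNA polymerase subunit, at 52.9 ± 2.41 and 424.6 ± 8.03 CPM in TF-1 and UCSD-AML1, and MCM5 at -1.64. Of 27 G2/M and mitosis genes, 5 were higher in TF-1 and 0 in UCSD-AML1, with CDC20 (2.44) and TPX2 (1.46). Counting smaller changes, 20 of the 31 were higher in UCSD-AML1 and 6 in TF-1, and 19 of the 27 were higher in TF-1 and 7 in UCSD-AML1. Over all tested genes, 43.3% were higher in UCSD-AML1 and 40.6% in TF-1. Of 74 cytosolic ribosomal protein genes 3 were called at 2-fold, RPL10 (1.57) and RPLP1 (1.36) among them, all higher in TF-1, with a median of 0.00905. Replication-dependent histones, of which 8 of 25 fell under the filter, were higher in TF-1 for 16 of 17 and in UCSD-AML1 for 1. With the 8 vehicle libraries fitted alone, 9 were higher in TF-1. Their summed level was 134.9 to 150.4 CPM in TF-1 and 24.5 to 28.9 in UCSD-AML1. HIST1H1C and HIST1H2BK had log2 fold changes of 3.53 and 2.85. These transcripts lack poly(A) tails for the most part and many are close copies, so their levels are uncertain.

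The difference was also read along the chromosomes, using the gene order of RefSeq on GRCh38.p14 for 14208 placed genes; it is a description with no test, and the copy number of either line was not measured here. The median log2 fold change was 0.70 on chromosome 7 (664 genes, 75.0% of them above 0) and 0.69 on chromosome 21 (149 genes), against -0.045 over all placed genes. The lowest were -0.376 on chromosome 9 (575 genes) and -0.317 on chromosome 12 (757 genes), with chromosome 18 close by at -0.311. With at least 5 CPM in both lines, chromosome 18 was the lowest, at -0.421 (124 genes), against -0.399 and -0.367 on chromosomes 9 and 12. The SD of these 4 medians over libraries was 0.0124 to 0.087. On chromosome 7, 40.1% of tested genes were called at 2-fold higher in TF-1 and 86 of the 664 higher in UCSD-AML1, against 21.8% and 18.7% over all genes.

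**Figure D4:**
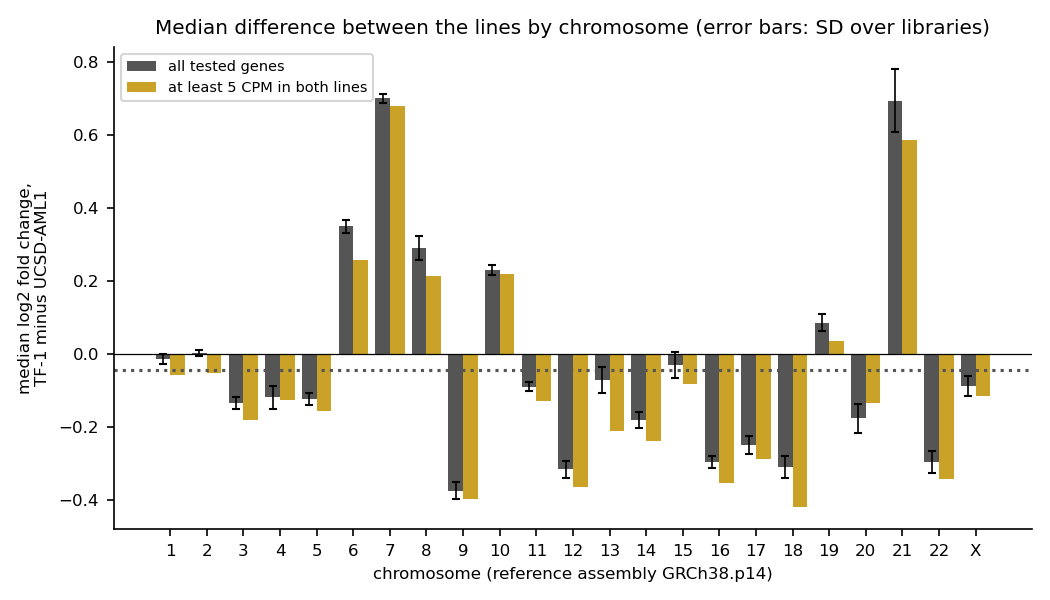
Median log2 fold change (TF-1 minus UCSD-AML1) of the genes of each chromosome, for all tested genes (grey, error bars are the SD over libraries) and for genes with at least 5 CPM in both lines (yellow), with a dotted line at the median over all placed genes. Chromosomes 7 and 21 stand at 0.70 and 0.69, and chromosome 9 at -0.376.

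Within chromosomes, the running median over each gene and the 50 neighbours on either side, among genes with at least 5 CPM in both lines, reached 1.03 on chromosome 19, in a window from SLC25A42 to RYR1 centred on GRAMD1A, where 89 genes were higher in TF-1, 53 of them called at 2-fold. The lowest window lay on chromosome 12 from HECTD4 to ZNF268, with a running median of -0.901, 44 genes called at 2-fold higher in UCSD-AML1 and 4 higher in TF-1. Runs of at least 4 such neighbours called at 2-fold in 1 direction, a rule added after seeing the data, numbered 35, of which 24 were higher in TF-1. The longest held 11 genes on chromosome 7, from RNF216 to C7orf26, with a median of 1.37. RAC1, a small GTPase in that run, stood at 327 to 347 CPM in TF-1 and 135 to 149 in UCSD-AML1.

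A run of 7 genes on chromosome 3, PLCH1, SLC33A1, GMPS, SSR3, TIPARP, CCNL1 and RSRC1, had a median of 3.22 with single genes from 1.04 to 4.45. GMPS, which makes GMP, stood at 2311, 2426, 2405 and 2427 CPM in TF-1 and 181, 182, 179 and 174 CPM in UCSD-AML1. TIPARP, an ADP-ribosyltransferase, stood at 339 to 366 against 22.3 to 25.1 CPM, and SLC33A1, an acetyl-CoA transporter, at 349 to 372 against 36.7 to 41.0 CPM. UT-7 vehicle libraries held 138.6 ± 1.52 CPM of GMPS and 187.4 ± 2.55 CPM of SSR3. KCNAB1 and C3orf33, in the same stretch but below 5 CPM in UCSD-AML1, had log2 fold changes of 6.41 and 3.32. DHX36, before PLCH1, had -0.02 (adjusted p = 0.768 by edgeR). It was not an edge of the difference. The genes beside it, ARHGEF26 (3.96) and MME (8.10), were called higher in TF-1, at 1.35 and 2.25 CPM there. At the other end LEKR1 (9.69), VEPH1 (11.8) and PTX3 (8.50) were called higher in TF-1 too, all near or at 0 in UCSD-AML1. On chromosome 1, PRDX1 and its neighbour AKR1A1, an aldehyde reductase, were both higher in UCSD-AML1 (AKR1A1 117 to 138 against 1220 to 1278 CPM), while NASP next to AKR1A1 had 0.05 (adjusted p = 0.123) and MMACHC, on the other side of PRDX1, was higher in TF-1 (2.09, adjusted p = 6.72e-22). These stretches were picked after their values were seen.

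**Figure D5:**
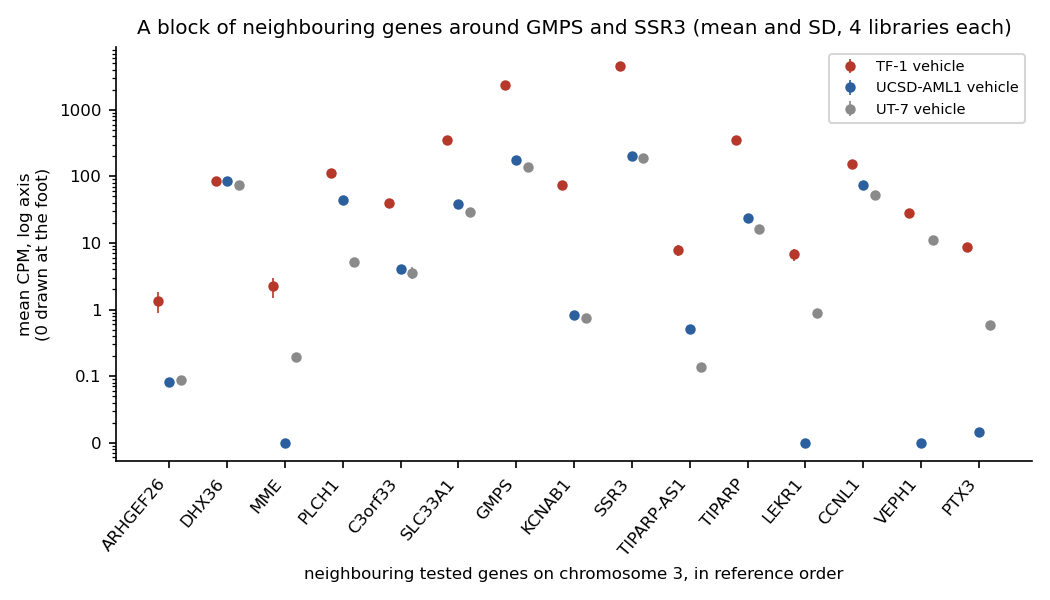
Mean CPM (log axis, SD bars for means of at least 1 CPM, values of 0 at the foot) of neighbouring tested genes on chromosome 3 in the vehicle libraries of TF-1, UCSD-AML1 and UT-7, 4 each. From C3orf33 to TIPARP, TF-1 lies above the other 2 lines for each gene, while at DHX36 the 3 lines lie close together. At ARHGEF26 and MME, on either side of DHX36, TF-1 is again the highest.

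The same contrast was read in the 8 cyclocreatine libraries of these lines, which share the model's estimate of spread but not the vehicle libraries. Of the 5916 genes called at 2-fold with vehicle, 5689 were called in the same direction with 3 mM cyclocreatine, 5243 of them at 2-fold, 5 were called in the opposite direction and 222 were not called. MECOM had a log2 fold change of -4.97 with cyclocreatine against -4.99 with vehicle. A test of the difference between the contrasts called 1489 of the 5916 genes, 384 of them by 2-fold or more. Over all 14588 tested genes it called 4242, a larger share, so the 1489 are not particular to genes that separate the lines.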

How the data were processed

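Per the labels' protocols, RNA of the vehicle cells came from an RNeasy kit and was read on an Illumina HiSeq. The deposited files give whole-number read counts per RefSeq symbol for 25728 symbols in each library. Builds GRCh37 and hg19 and the tools TopHat2, RSEM and FastQC stand in the submitters' processing notes; for their roles, strand and multiply placed reads nothing is given in the sources used here. Near-identical, overlapping and antisense genes are therefore uncertain.

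The counts of all 24 libraries were fitted with edgeR 4.0.16 in R 4.3.3 (filterByExpr, TMM factors, group-means model, robust quasi-likelihood test, Benjamini-Hochberg adjustment over all 14588 genes tested, both directions), which shares 1 estimate of spread, and the contrast was TF-1 minus UCSD-AML1 with vehicle. CPM use TMM-scaled totals. The median biological coefficient of variation was 0.0578, and the script was tested on simulated counts. Each SE is the fold change divided by the root of the test statistic, an approximation. Lower bounds rest on a fixed 3 counts per library. They cover counting error, and nothing else, where the low line held 0 or few counts. Closer to 12 counts they do not cover it, as for S100A6 (11 counts in UCSD-AML1) and KLF1 (9 counts). DESeq2 1.42.0 and limma 3.58.1 served as alternatives, beside library totals, no filter, the 8 libraries alone, a block and leaving out each library.

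The 40 gene lists (1002 symbols) and the naming rule were chosen with earlier results of these data known. Per direction the rule names the 6 near-absent genes with the highest CPM, the 8 largest fold changes with at least 5 CPM in both lines, and the 4 largest CPM differences. Per list it takes up to 5 called members with the smallest p, and it adds the creatine genes and MECOM. It leaves out sex-specific, small RNA, mitochondrial and LOC or LINC genes. Exceptions are stated where they occur, and some genes that the rule names are not reported here. Gene order came from RefSeq on GRCh38.p14, which matched 14245 of the 14588 genes, 13283 of them by current symbol; the files use an earlier build, so none of its gene coordinates are given with expression values. Promoters matched 10513 tested genes. No 2 replicates were as close as counting error allows (chi-square per degree of freedom 1.57 to 4.04), so no library was a copy.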

Additional observations from a re-analysis of the deposited data

Results flagged for a closer look

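In 351 sets of 4 libraries, 1 library stood apart from the other 3 by Dixon's criterion in 23, and chance alone flags about 1 in 20. In TF-1, replicate 1 was highest for SPTB (116.1 CPM, others 109.3 to 110.4) and for the TMM factor (0.9921) and lowest for the summed glycolysis list (19700 CPM). Replicate 2 was highest for LIF (34.41 CPM), ODC1 (869.2 CPM) and UQCRH (412.9 CPM). Replicate 3 was highest for CKM (13.64 CPM), CSF2RB (312.9 CPM), DUSP6 (10.07 CPM) and SLC33A1 (371.5 CPM) and lowest for VCAN (1.609 CPM). Replicate 4 was highest for the summed stem and progenitor list (4203 CPM, others 4139 to 4144).

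In UCSD-AML1, replicate 1 was highest for PRDX1 (6283 CPM, others 6057 to 6091) and lowest for HLA-DRB1 (16.15 CPM). Replicate 2 was highest for CKM (6.695 CPM) and TAL1 (265.0 CPM) and lowest for EPOR (1.877 CPM). Replicate 3 was lowest for HBD (0.8968 CPM), FECH (52.22 CPM), GATA2 (389.1 CPM), IFI44L (152.6 CPM), the summed lymphoid list (680.2 CPM) and the summed histone list (24.49 CPM).

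The difference between the lines itself differed between vehicle and cyclocreatine, by edgeR's interaction test, for 1489 of the 5916 genes called at 2-fold. Over all 14588 tested genes, it did so for 4242, a larger share. Among the genes named above with at least 5 CPM in all 4 groups, it moved by 2-fold or more for 4. The change, cyclocreatine minus vehicle on the log2 scale, was 1.40 for ENPP2, -1.27 for DDIT4, 1.31 for RHAG and -1.07 for INSIG1. What lies behind these changes was not tested.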

How the results depend on the processing

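All 8 settings of method, filter and library choice, and leaving out each of the 8 libraries, kept the main counts within 1.5 times of the reported ones. Genes called ranged from 11908 to 13442 (12124 to 12211 with a library left out) and genes called at 2-fold from 5456 to 7238 (5993 to 6024 with a library left out). No named gene reversed or lost its call in any setting run. With a replicate block, 12222 genes were called and 5915 at 2-fold, and 5907 of the 5916 were shared. The numbers do not pair the libraries: deviations of same-numbered libraries correlated at 0.0145, -0.00457, 0.000912 and 0.00286. Near-absent genes numbered 327 with at most 4 counts and 634 with at least 5 CPM in the other line, against 440. Counts of list members at 2-fold moved by more than 1.5 times in 26 of 1120 cases. Replication-dependent histones higher in TF-1 numbered 9, against 16, with the 8 vehicle libraries fitted alone. Without the filter, creatine genes higher in TF-1 numbered 5 against 3 and cytokine and growth factor ligands 14 against 9. The other cases were counts that moved between 0, 1, 2 and 3. With the 8 libraries fitted alone, 459 of the 5916 genes had no adjusted p.

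The medians of chromosomes 7, 9, 12 and 21 shifted by more than their spread between libraries in some settings and kept their sign; the scaling settings shift all genes together. Chromosome 7 stood at 0.659 with library totals, 0.756 with DESeq2 and 0.677 for genes with at least 5 CPM in both lines, and at 0.695 to 0.714 with a library left out. Chromosome 21 stood at 0.586 for genes with at least 5 CPM, and 0.666 to 0.748 with a library left out. Chromosome 9 stood at -0.418 with library totals and -0.326 with DESeq2, and chromosome 12 at -0.359, -0.267 and, with at least 5 CPM, -0.367. With at least 5 CPM, chromosome 18 (-0.421) lay below both. The scaling and leave-out settings for chromosomes were chosen after seeing the data. The median over all genes was -0.0455, -0.0875 with library totals and 0 with DESeq2.

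With 1 line on each side, the contrast holds for these lines alone. A count of 0 allows up to 0.188 CPM in TF-1 and 0.191 CPM in UCSD-AML1, counting error only.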
